A study of Mus musculus with 9 samples.

Results

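The genes described here were chosen by name: every symbol of the count table that begins with Il and a digit, which takes in the interleukins and their receptors, together with Osm, Osmr, Lif, Lifr, Clcf1, Cntf and Ctf1. They numbered 91 of the 24964 genes in the table. RNA-seq counts came from hearts of male C57BL/6JR mice, 8 weeks old, with 3 mice in each of 3 groups. MI 28 d hearts were taken 28 days after ligation of the left anterior descending coronary artery, which causes a myocardial infarction (MI). MI 7 d hearts were taken 7 days after the same ligation. Sham hearts came from mice whose chest was opened under isoflurane without ligation. No group carried a transgene, a deletion or a drug treatment in the labels, and all groups shared the anaesthesia and thoracotomy. The day on which sham hearts were taken is not given in the sources used here, so time after surgery and infarction cannot be told apart. The labels name the tissue only as heart, so scar, border and distant muscle are not separated.

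Interleukins are secreted signals that leukocytes and tissue cells use to recruit, activate and restrain each other. The IL-1 family signals through paired receptors and MyD88 to NF-kB. Cytokines of the IL-6 group share the receptor chain gp130 (Il6st), and those of the IL-2 group share the common gamma chain (Il2rg). Both act through JAK kinases and STAT factors, with SOCS proteins as feedback inhibitors. In infarcted hearts these signals are known for their part in the clearance of dead muscle and the building of the scar.

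The promoter letters of 4 members are shown because Il7r, Il6 and Il1rn had the largest fold changes of the 49 tested members at 7 d and Il33 the largest at 28 d. Each window covers 250 bases before to 50 bases after a RefSeq transcript start in build GRCm38.p6, written 5′ to 3′ on the gene's strand. Il6 lies at chr5:30012864-30013163 on the plus strand, Il1rn at chr2:24345121-24345420 on the plus strand, Il7r at chr15:9529827-9530126 on the minus strand and Il33 at chr19:29924863-29925162 on the plus strand. Capitals mark matches to 3 motifs searched on both strands: kB (GGG, any 2 bases, then TTTCC), AP-1 (TGANTCA) and STAT (TTCNNNGAA). The Il1rn and Il33 windows each belong to 1 of more than 1 start in the table.
Il6: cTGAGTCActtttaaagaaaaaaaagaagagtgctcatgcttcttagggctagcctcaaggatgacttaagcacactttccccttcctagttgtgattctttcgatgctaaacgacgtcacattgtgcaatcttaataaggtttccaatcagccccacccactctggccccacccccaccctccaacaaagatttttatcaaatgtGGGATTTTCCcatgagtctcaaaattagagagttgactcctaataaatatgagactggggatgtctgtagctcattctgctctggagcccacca
Il1rn: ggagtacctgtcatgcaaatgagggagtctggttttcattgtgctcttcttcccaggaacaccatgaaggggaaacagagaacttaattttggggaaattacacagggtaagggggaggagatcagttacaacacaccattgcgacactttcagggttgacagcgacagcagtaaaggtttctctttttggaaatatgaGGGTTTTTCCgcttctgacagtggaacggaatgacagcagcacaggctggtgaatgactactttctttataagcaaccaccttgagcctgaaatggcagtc
Il7r: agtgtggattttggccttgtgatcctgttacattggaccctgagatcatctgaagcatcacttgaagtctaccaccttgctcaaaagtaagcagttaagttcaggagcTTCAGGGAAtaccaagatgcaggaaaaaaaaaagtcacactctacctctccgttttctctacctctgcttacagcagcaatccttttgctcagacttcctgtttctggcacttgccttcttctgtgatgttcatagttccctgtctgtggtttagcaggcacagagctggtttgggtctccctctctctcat
Il33: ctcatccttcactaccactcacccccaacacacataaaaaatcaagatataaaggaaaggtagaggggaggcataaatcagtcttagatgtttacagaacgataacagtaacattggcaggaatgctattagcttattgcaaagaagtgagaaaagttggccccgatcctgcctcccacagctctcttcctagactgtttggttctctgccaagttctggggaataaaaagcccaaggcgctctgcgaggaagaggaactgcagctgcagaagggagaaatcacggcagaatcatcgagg
The Il6 window held a kB and an AP-1 match, the Il1rn window a kB match and the Il7r window a STAT match. The Il33 window held none of these letters. Among the 35 windows of members that were higher at 7 d than in sham, 17.1% held a kB match, 17.1% an AP-1 match and 8.57% a STAT match; the kB share counts 1 Il1rn site in each of its overlapping windows. Over all 88 member windows, whatever their change, the shares were 9.09% for kB, 19.3% for AP-1 and 12.5% for STAT. Over all 32851 windows of the same length in the table, the shares were 1.63% for kB, 7.81% for AP-1 and 8.3% for STAT. A match is a run of letters and not a measured binding site. Windows were given for 72 of the 91 members.

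The libraries held 15300344 to 15770389 counts at 28 d, 18355720 to 19238101 at 7 d and 12351525 to 13629120 in sham. Summed marker genes of other cell types moved with the groups. Macrophage markers summed to 944 to 1460 CPM (counts scaled to a common library size) at 28 d, 4420 to 5460 CPM at 7 d and 536 to 602 CPM in sham. Cardiomyocyte markers summed to 19200 to 35500 CPM at 28 d, 7830 to 10800 CPM at 7 d and 60000 to 63000 CPM in sham. Fibroblast markers summed to 3610 to 7670 CPM at 28 d, 18900 to 25200 CPM at 7 d and 1430 to 1450 CPM in sham. Most of that sum at 7 d came from the collagen genes Col1a1 and Col1a2 (means 11900 and 9390 CPM). Dcn of the same list had a mean of 2370 CPM at 28 d and 1440 CPM at 7 d, with overlap between libraries. Pdgfra had means of 113 and 153 CPM, and Tcf21 of 16.5 and 72.6 CPM. T cell markers summed to 11.2 to 21.6 CPM at 28 d, 20.2 to 34 CPM at 7 d and 3.66 to 5.07 CPM in sham. No marker of these lists was at 0 in every library. Fewer cells of a type and less RNA per cell cannot be told apart in such bulk samples, and the part of these shifts in the results below was not tested. MI 28 d mouse 3 stood apart, with a mesothelial marker sum of 505 CPM against 84.2 and 98.6 CPM in the other MI 28 d hearts, 20 to 109 CPM at 7 d and 7.24 to 8.54 CPM in sham. Its sum of mast cell and eosinophil markers was 19.4 CPM, against 4.51 and 2.73 CPM in the other MI 28 d hearts. That sum was 1.34 to 8.57 CPM at 7 d and 0.262 to 4.23 CPM in sham. The same heart had the highest fibroblast sum at 28 d, 7670 CPM. Adipocyte markers summed to 296 and 260 CPM in MI 28 d mice 1 and 3 and to 415 CPM in MI 7 d mouse 3, against 0.818 to 6.93 CPM in the other hearts.

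Of the 91 members, 49 had enough counts to be tested, 29 fell under the filter on low counts and 13 had no count in any library. Among the tested members, 33 rose and 6 fell at 7 d relative to sham, where 39% of the 14347 tested genes rose and 35.4% fell. At 28 d relative to sham, 27 members rose and 3 fell, against 29.5% and 25.6% of all tested genes. Between the infarct times, 4 members were higher and 17 lower at 28 d than at 7 d, against 29.1% higher and 26.1% lower of all tested genes. The median log2 fold change of tested members was 1.44 at 7 d, beside 0.06 for all tested genes, and 0.83 at 28 d, beside 0.05. At 28 d relative to 7 d it was -0.41, beside 0.03. All 3 libraries of MI 7 d lay above all of sham in 36 members and below in 7, against 42.6% and 38.2% of all tested genes; for MI 28 d the numbers were 28 and 4, against 34.7% and 31.7%. All MI 28 d libraries lay above all MI 7 d libraries in 6 members and below in 17, against 30.9% and 28.9%. These comparisons share their sham or infarct libraries, and a member that passed the filter only through its high group had to differ, so the counts describe the members that could be tested. Scaling by library size alone placed the median of all tested genes at 0.4 and 0.3 on the log2 scale at 7 d and 28 d relative to sham. With it 67.4% of called genes were higher at 7 d and 74% at 28 d, where the main scaling gave 52.5% and 53.5%, and 39 and 34 members rose. The members' summed counts were 0.129, 0.138 and 0.16% of the library at 28 d, 0.182, 0.175 and 0.185% at 7 d, and 0.0967, 0.0973 and 0.0956% in sham, so the shares of the 3 groups did not overlap.

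**Figure D1:**
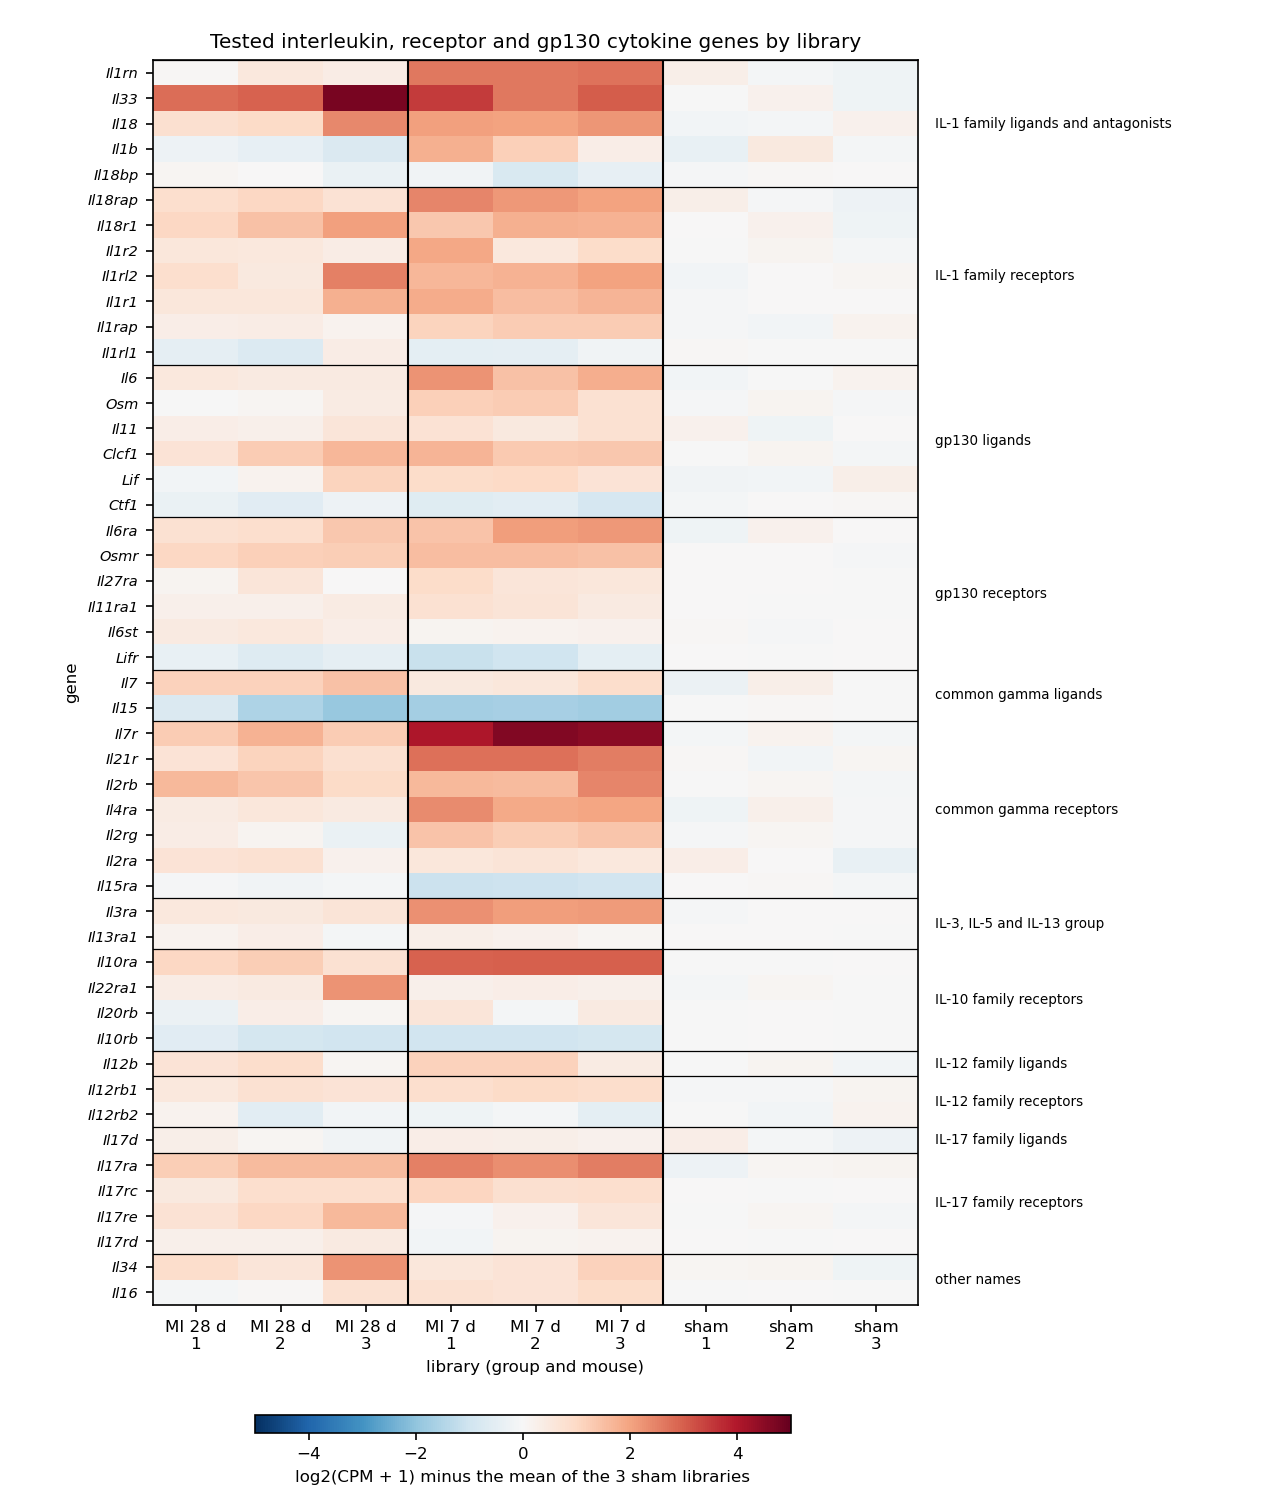
Log2(CPM + 1) of each of the 49 tested members (rows, by family) in each of the 9 libraries (columns), as the difference from the mean of the 3 sham libraries. Red is higher and blue lower than sham; the 7 d columns are redder than the 28 d columns for most receptor rows, and Il15, Il10rb and Lifr are blue at both times.

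Most of the ligands were rare RNAs. Per kb of exon, the members with the highest mean level were receptors: Il6st at 40.2 CPM per kb and Il10rb at 31.7 CPM per kb at 28 d, Il6st at 33.8 and Il10rb at 29 CPM per kb at 7 d, and Il10rb at 55.4 and Il6st at 29.7 CPM per kb in sham. Among ligands, Il33 reached 23.3 CPM per kb at 28 d and 14.2 CPM per kb at 7 d. In sham hearts Il15 was the highest ligand at 13.4 CPM per kb. The ligand groups held 40 members, of which 15 could be tested; 11 rose and 3 fell at 7 d, and 6 rose and 1 fell at 28 d. The receptor groups held 39 members, of which 30 could be tested. Of these, 20 rose and 3 fell at 7 d, and 19 rose and 2 fell at 28 d. These totals leave out the mixed IL-3, IL-5 and IL-13 group of 7, with Il3ra and Il13ra1, and the 5 other names, with Il16 and Il34. The ligand groups include the antagonists Il1rn and Il18bp. Of all tested genes, 39% rose and 35.4% fell at 7 d, and 29.5% rose and 25.6% fell at 28 d. The family counts below stand beside the same shares, and each family holds few genes.

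Of the IL-1 family ligands and antagonists, 5 of 11 were tested; 4 rose and 1 fell at 7 d, and 2 rose at 28 d. Il33 encodes a nuclear cytokine that damaged cells release. It stood at 33.4, 36.7 and 132 CPM in MI 28 d hearts, 54.6, 29.5 and 38.8 CPM in MI 7 d hearts, and 3.93, 4.69 and 3.3 CPM in sham hearts. Every infarct library lay above every sham library, and the infarct times overlapped. Il33 rose 17-fold at 28 d (log2 fold change 4.09 ± 0.59 SE, adjusted p = 0.000419) and 10.3-fold at 7 d (3.37 ± 0.58, adjusted p = 0.000464). The highest value came from MI 28 d mouse 3, which also had the highest mesothelial sum and the highest mast cell and eosinophil sum. The part of these lists in the level of Il33 was not tested. Without that library the log2 fold change of Il33 at 28 d was 3.15 (adjusted p = 1.54e-05). Its receptor ST2 (Il1rl1) had 1.39, 1.05 and 3.19 CPM at 28 d, 1.35, 1.39 and 1.92 CPM at 7 d, and 2.36, 2.21 and 2.2 CPM in sham. No comparison of Il1rl1 passed over all libraries (log2 fold change -0.25, adjusted p = 0.602 at 28 d, and -0.53, adjusted p = 0.235 at 7 d relative to sham). Without MI 28 d mouse 3 it was lower at 28 d (-0.88, adjusted p = 0.0314). Without the 3 libraries rich in adipocyte markers it was lower at both times (-1.1, adjusted p = 0.0317 at 28 d, and -0.73, adjusted p = 0.0299 at 7 d). The table counts Il1rl1 as a whole, so its soluble and membrane forms are not separated.

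Il1b, the secreted fever cytokine, and Il1rn, the antagonist that blocks its receptor, took different courses. Il1b had 1.99, 1.67 and 1.16 CPM at 28 d, 11.1, 7.18 and 3.56 CPM at 7 d, and 1.74, 3.95 and 2.37 CPM in sham. The lowest MI 7 d heart lay below the highest sham heart, while the infarct times did not overlap. It rose 2.71-fold at 7 d (log2 fold change 1.44 ± 0.43 SE, adjusted p = 0.0125) and was lower at 28 d than at 7 d (-2.18 ± 0.44, adjusted p = 0.00236). The 7 d call was lost without sham mouse 1 (1.2, adjusted p = 0.0514) and without MI 7 d mouse 1 (1, adjusted p = 0.0575). MI 7 d mouse 1 also had the highest neutrophil marker sum, 103 CPM against 58.8 and 49.8 CPM in the other MI 7 d hearts, 9.49 to 11 CPM at 28 d and 9.01 to 11.7 CPM in sham. Reads of Il1b and of the antisense gene Il1bos, whose exons overlap, cannot be told apart without strand; Il1bos itself had 2 or fewer counts in each library.

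Il1rn had 0.531, 1.12 and 0.869 CPM at 28 d, 8.13, 7.92 and 8.61 CPM at 7 d, and 0.785, 0.368 and 0.254 CPM in sham. The 3 MI 7 d hearts were close to each other and far above all others, and the 28 d and sham values overlapped. Il1rn rose 17.3-fold at 7 d (log2 fold change 4.11 ± 0.36 SE, adjusted p = 4.28e-06). That value was 4.7 without sham mouse 1 and 3.8 without sham mouse 3. At 28 d Il1rn did not pass (0.84 ± 0.41, adjusted p = 0.113). It passed there without sham mouse 1 (1.42, adjusted p = 0.0248) or MI 28 d mouse 1 (1.06, adjusted p = 0.0468). The ratio of Il1rn to Il1b counts within a library was 0.267, 0.667 and 0.75 at 28 d, 0.735, 1.1 and 2.42 at 7 d, and 0.45, 0.093 and 0.107 in sham. All MI 7 d ratios exceeded all sham ratios, 7.59-fold on the geometric mean (exact two-sided permutation p = 0.1, the smallest that 3 against 3 allows; 0.125 after Benjamini-Hochberg adjustment over 15 ratio tests). On the log2 scale that difference was 2.92. With single libraries left out it lay between 2.45 (without MI 7 d mouse 3) and 3.65 (without sham mouse 1). The 28 d ratios overlapped those of both other groups. Their log2 difference from sham was 1.63, with 2.36 without sham mouse 1 and 1.22 without sham mouse 2.

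Il18, a cytokine matured by caspase-1, had 1.73, 2.05 and 7.36 CPM at 28 d, 5.53, 5.3 and 6.16 CPM at 7 d, and 0.436, 0.46 and 0.845 CPM in sham. It rose 9.59-fold at 7 d (adjusted p = 0.000708) and 6.33-fold at 28 d (adjusted p = 0.00489), with no overlap with sham. Without MI 28 d mouse 3 its log2 fold change at 28 d was 1.68 in place of 2.66 and still passed. Its soluble decoy Il18bp had 23.4, 21.8 and 17 CPM at 28 d, 19.2, 12.3 and 16 CPM at 7 d, and 20.4, 22.5 and 21.8 CPM in sham. Il18bp fell at 7 d by a log2 fold change of -0.44 ± 0.17 SE (adjusted p = 0.0365), a call lost without any sham mouse and without MI 7 d mouse 2 or 3, where the adjusted p lay between 0.054 and 0.116, and under scaling by library size alone. Its exons overlap those of Numa1 on the opposite strand. Il1a had 11 counts at 28 d, 14 at 7 d and 4 in sham over the group, and Il1f9, which encodes IL-36 gamma, had 0 counts at 28 d, 24 at 7 d and 6 in sham, 16 of the 24 in MI 7 d mouse 1.

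Of the IL-1 family receptor genes, 6 lie in a row on mouse chromosome 1, with Il1r2 at 40084692 to 40125230, Il1r1 at 40222480 to 40316201, Il1rl2 at 40324589 to 40367555, Il1rl1 at 40404864 to 40465418, Il18r1 at 40465552 to 40500854 and Il18rap at 40515362 to 40551707 in GRCm38. Il1rap lies on chromosome 16, and Il1rapl1 and Il1rapl2 lie on chromosome X. Of all 9 genes, 7 were tested; 6 rose at 7 d and 4 at 28 d, and none fell. Il1r1, the signalling receptor of IL-1, had 42.1, 42.1 and 98.3 CPM at 28 d, 103, 82.8 and 92.9 CPM at 7 d, and 26.7, 28.7 and 28.5 CPM in sham. It rose 3.33-fold at 7 d (adjusted p = 0.000466) and 2.18-fold at 28 d (adjusted p = 0.0102), and MI 28 d mouse 3 alone reached the 7 d range. Il1r2, a decoy that binds IL-1 without signalling, had 0.73, 0.682 and 0.521 CPM at 28 d, 3.46, 0.693 and 1.2 CPM at 7 d, and 0.174, 0.276 and 0.0845 CPM in sham. It rose at 7 d (log2 fold change 3.29 ± 0.74 SE, adjusted p = 0.00261), by 2.38 without MI 7 d mouse 1, the library with the highest neutrophil marker sum. Il1rap, the co-receptor of IL-1, IL-33 and IL-36, had 10.1, 10.2 and 8.98 CPM at 28 d, 17.9, 20.1 and 20.1 CPM at 7 d, and 7.33, 7.08 and 9.04 CPM in sham. It rose 2.48-fold at 7 d (adjusted p = 7.87e-06) and was lower again at 28 d than at 7 d (log2 fold change -0.99 ± 0.12, adjusted p = 0.000121). The ratio of Il1rap to Il1r1 counts was 0.24, 0.242 and 0.0914 at 28 d, 0.174, 0.243 and 0.217 at 7 d, and 0.275, 0.247 and 0.318 in sham, with MI 28 d mouse 3 far below the rest. Infarct ratios lay below all sham ratios (exact permutation p = 0.1 at each time), and the difference of 28 d from 7 d was -0.26 on the log2 scale with mouse 3 (p = 0.8) and 0.2 without it.

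The receptor chains of IL-18 were low in sham hearts. Il18r1 had 1.59, 2.48 and 4.23 CPM at 28 d, 2.21, 3.37 and 3.18 CPM at 7 d, and 0.262, 0.46 and 0.0845 CPM in sham. Il18rap, its accessory chain, had 1.73, 2.05 and 1.51 CPM at 28 d, 7.12, 5.79 and 5.1 CPM at 7 d, and 0.872, 0.46 and 0.254 CPM in sham. Both rose at both times, with all infarct hearts above all sham hearts. Il18rap was 11.2-fold higher at 7 d and 3.3-fold higher at 28 d, and its 28 d level was below its 7 d level (log2 fold change -1.77 ± 0.29 SE, adjusted p = 0.000706). Il18r1 was 10.7-fold and 10.2-fold higher at 7 d and 28 d, and 28 d and 7 d did not differ past the threshold (adjusted p = 0.889). Without sham mouse 2 its log2 fold changes were 4.02 and 3.95 in place of 3.43 and 3.36. The lowest values were 2.99 at 7 d without sham mouse 3 and 2.91 at 28 d without MI 28 d mouse 3. Il1rl2, the IL-36 receptor, had 9.69, 7.32 and 33.7 CPM at 28 d, 18, 19 and 22.9 CPM at 7 d, and 4.45, 5.15 and 5.41 CPM in sham. It rose 3.98-fold at 7 d (adjusted p = 0.00534) and 3.38-fold at 28 d (adjusted p = 0.0157). Its 28 d call was lost without sham mouse 1 (log2 fold change 1.67, adjusted p = 0.0568), and without MI 28 d mouse 3 the value was 0.76 in place of 1.76.

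Among the gp130 ligands, 6 of 9 were tested; 5 rose and 1 fell at 7 d, and 2 rose at 28 d. Il6, the founding ligand of the group, had 9, 8 and 9 counts at 28 d, 89, 42 and 61 counts at 7 d, and 0, 1 and 3 counts in sham, which correspond to 0.597, 0.496 and 0.521 CPM, 4.28, 2.08 and 2.94 CPM, and 0, 0.092 and 0.254 CPM. The 3 groups did not overlap, with 7 d highest. Il6 rose by a log2 fold change of 4.64 ± 0.58 SE at 7 d (adjusted p = 5.35e-05), which was 5.88 without sham mouse 3 and 4.08 without sham mouse 1. It was lower at 28 d than at 7 d (-2.51 ± 0.43, adjusted p = 0.000911). Its 28 d value relative to sham, 2.13 ± 0.7 (adjusted p = 0.0266), was 3.37 without sham mouse 3 and was no longer past the threshold without sham mouse 1 or 2 or MI 28 d mouse 1 (1.56 to 2.04, adjusted p = 0.0509 to 0.0785).

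Osm, which encodes oncostatin M, a macrophage product, had 0.398, 0.496 and 0.869 CPM at 28 d, 2.26, 2.43 and 1.4 CPM at 7 d, and 0.349, 0.552 and 0.338 CPM in sham. It rose 4.86-fold at 7 d (adjusted p = 0.000597), and 28 d was below 7 d (log2 fold change -1.76 ± 0.37 SE, adjusted p = 0.00271) and overlapped sham. Clcf1, a ligand of the ciliary neurotrophic factor receptor, had 3.25, 5.33 and 7.24 CPM at 28 d, 7.41, 5.45 and 5.68 CPM at 7 d, and 1.57, 1.84 and 1.44 CPM in sham. It rose 3.82-fold at 7 d and 3.27-fold at 28 d (adjusted p = 0.000252 and 0.00132). Il11, a cytokine known for acting on fibroblasts, was rare, at 0.465, 0.372 and 0.753 CPM at 28 d, 0.914, 0.644 and 0.962 CPM at 7 d, and 0.349, 0 and 0.169 CPM in sham. It passed at 7 d (log2 fold change 2.21 ± 0.64, adjusted p = 0.0104; 3.15 without sham mouse 1) and not at 28 d (1.57 ± 0.69, adjusted p = 0.0786), where it passed without sham mouse 1 (2.5, adjusted p = 0.0421). Lif had 0.796, 1.24 and 3.36 CPM at 28 d, 2.74, 3.02 and 2.17 CPM at 7 d, and 0.785, 0.828 and 1.44 CPM in sham. Its 7 d call (1.37 ± 0.51, adjusted p = 0.0324) was lost without sham mouse 1 or 2 or MI 7 d mouse 1 or 2, with values of 1.21 to 1.34 and adjusted p of 0.0685 to 0.104. Ctf1, which encodes cardiotrophin-1, was the ligand of this group that fell: it had 4.25, 3.41 and 4.4 CPM at 28 d, 3.27, 3.56 and 2.65 CPM at 7 d, and 5.15, 5.61 and 5.83 CPM in sham. All infarct hearts lay below all sham hearts, and the fall passed at 7 d (-0.81 ± 0.18, adjusted p = 0.00253) but not at 28 d (-0.46 ± 0.18, adjusted p = 0.0542; 0.0493 without MI 7 d mouse 3). Its exons overlap those of Ctf2 on the opposite strand.

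Of the 8 gp130 receptor genes, 6 were tested, and 4 rose and 1 fell at each infarct time. Of all tested genes, 39% rose and 35.4% fell at 7 d, and 29.5% rose and 25.6% fell at 28 d, so these few genes are described singly. Il6st, the shared chain gp130, took 28.3 to 35.8% of all member counts at 28 d, 21.6 to 23.7% at 7 d and 28.5 to 30.8% in sham. It had 447, 478 and 414 CPM at 28 d, 364, 377 and 383 CPM at 7 d, and 341, 315 and 332 CPM in sham. The 3 groups did not overlap. The difference passed at 28 d relative to sham (log2 fold change 0.44 ± 0.08 SE, adjusted p = 0.00197) and not at 7 d (0.19 ± 0.08, adjusted p = 0.0701; 0.0405 without MI 28 d mouse 3). At 28 d relative to 7 d it was 0.25 ± 0.08 (adjusted p = 0.0283). That call was lost without sham mouse 1 or 3, any MI 7 d mouse or MI 28 d mouse 2 (0.2 to 0.27, adjusted p = 0.0529 to 0.105). Scaling by library size alone, no filter, the compared libraries only, a replicate block and limma voom each ended it too.

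Osmr and Lifr, which each pair with gp130 to receive oncostatin M and LIF, moved in opposite directions. Osmr had 71.1, 80.8 and 83.7 CPM at 28 d, 104, 103 and 96.8 CPM at 7 d, and 35.4, 35.2 and 33.3 CPM in sham. Lifr had 63.8, 53 and 60.8 CPM at 28 d, 38, 41.1 and 60 CPM at 7 d, and 83.8, 81.5 and 86 CPM in sham. Osmr rose 2.93-fold at 7 d (adjusted p = 2.47e-07) and 2.27-fold at 28 d (adjusted p = 9.93e-06), while Lifr was 1.81-fold lower at 7 d (adjusted p = 0.000683) and 1.41-fold lower at 28 d (adjusted p = 0.021). The 28 d fall of Lifr was lost under scaling by library size alone, and without sham mouse 1 or 3 or MI 28 d mouse 2, where its log2 fold change was -0.51 to -0.43 and its adjusted p 0.0554 to 0.0704. The ratio of Osmr to Lifr counts, which does not depend on scaling, was 1.11, 1.52 and 1.38 at 28 d, 2.74, 2.52 and 1.61 at 7 d, and 0.422, 0.432 and 0.387 in sham. No group overlapped another; the ratio was 5.4-fold higher at 7 d than in sham and 3.21-fold higher at 28 d than in sham (exact two-sided permutation p = 0.1 for each, the smallest possible; 0.125 after adjustment).

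Il6ra, the IL-6 binding chain, had 9.36, 9.86 and 14.4 CPM at 28 d, 15.5, 24.7 and 26.2 CPM at 7 d, and 4.27, 6.07 and 5.15 CPM in sham. It rose 4.28-fold at 7 d (adjusted p = 3.88e-05) and 2.17-fold at 28 d (adjusted p = 0.00464), with no overlap between any groups. The ratio of Il6ra to Il6st counts was 0.0209, 0.0206 and 0.0348 at 28 d, 0.0425, 0.0656 and 0.0684 at 7 d, and 0.0125, 0.0193 and 0.0155 in sham. It was 3.71-fold higher at 7 d than in sham and 1.59-fold higher at 28 d than in sham, with all groups apart (exact permutation p = 0.1 each; 0.125 after adjustment). Il11ra1, the IL-11 binding chain, had 80.4, 81.4 and 91.2 CPM at 28 d, 116, 108 and 92.6 CPM at 7 d, and 69.6, 67.7 and 66.8 CPM in sham. It rose 1.55-fold at 7 d (adjusted p = 0.000161) and 1.24-fold at 28 d (adjusted p = 0.0179). The 28 d call was lost without sham mouse 2 or 3 or MI 28 d mouse 3 (log2 fold change 0.25 to 0.29, adjusted p = 0.0502 to 0.0664), and the lower value at 28 d than at 7 d (-0.32, adjusted p = 0.0144) without MI 7 d mouse 1 or MI 28 d mouse 2 (-0.29 to -0.25, adjusted p = 0.0501 to 0.0514). Its exons overlap Ccl27a on the opposite strand, and its near-identical copy Il11ra2 was listed with no counts. Il27ra, the IL-27 receptor chain, had 5.71, 8.13 and 5.1 CPM at 28 d, 10.5, 8.17 and 7.94 CPM at 7 d, and 5.15, 5.06 and 4.9 CPM in sham, and rose at 7 d (1.76-fold, adjusted p = 0.0042).

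**Figure D2:**
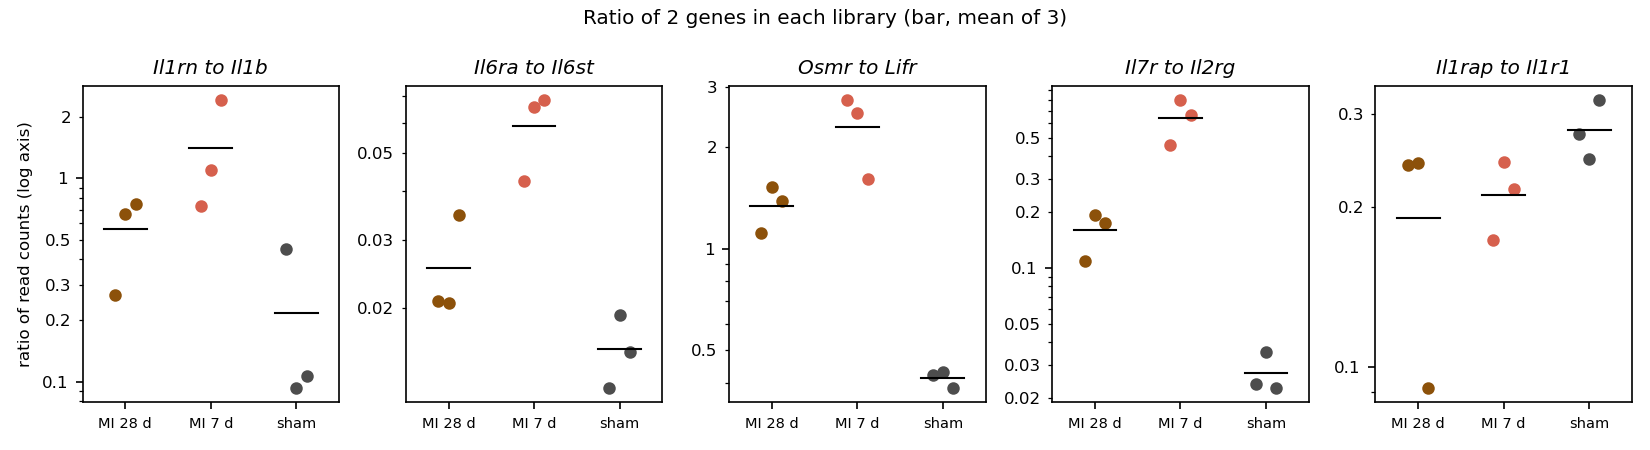
Ratio of the read counts of 2 members within each library (vertical, log axis) for 5 pairs; each point is a mouse and each bar the mean of 3. For Osmr to Lifr, Il6ra to Il6st and Il7r to Il2rg the 3 groups do not overlap and 7 d is highest, while for Il1rap to Il1r1 the infarct groups overlap and lie below sham.

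Of the 6 common gamma ligands, Il7 and Il15 had enough counts to be tested. Il15, a growth factor of natural killer cells and memory T cells, had 18, 9.86 and 7.36 CPM at 28 d, 8.56, 9.01 and 8.42 CPM at 7 d, and 29.7, 31.7 and 29.8 CPM in sham. All infarct hearts were below all sham hearts, and MI 28 d mouse 1 was the highest of them. Il15 was 3.51-fold lower at 7 d (log2 fold change -1.81 ± 0.26 SE, adjusted p = 0.000149) and 2.6-fold lower at 28 d (-1.38 ± 0.26, adjusted p = 0.0018), which was the deepest fall of any tested member in both comparisons. Il7, the stromal growth factor of lymphocytes, went the other way, with 2.19, 2.17 and 2.95 CPM at 28 d, 1.01, 1.14 and 1.64 CPM at 7 d, and 0.174, 0.736 and 0.423 CPM in sham. It rose 5.46-fold at 28 d (adjusted p = 0.00109) and 2.83-fold at 7 d (adjusted p = 0.0105), and the 3 groups did not overlap. The higher level at 28 d than at 7 d (0.95 ± 0.35, adjusted p = 0.0416) was lost without sham mouse 3 or any single infarct mouse other than MI 7 d mouse 3 (0.79 to 1.03, adjusted p = 0.0586 to 0.125), and under scaling by library size alone. Cardiomyocyte markers, which fell with Il15, are given above. Endothelial markers also fell, with sums of 411 to 721 CPM at 28 d, 607 to 697 CPM at 7 d and 1590 to 1640 CPM in sham. The part of either list in the change of Il15 was not tested. Il2 had 7 counts at 28 d, 3 at 7 d and 0 in sham over the group, Il4 and Il21 had 1 count each, and Il9 had none.

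Of the 8 common gamma receptor genes, 7 were tested; 6 rose and 1 fell at 7 d, and 4 rose at 28 d. Il7r, the binding chain of IL-7, showed the largest change of any tested member. It had 2.72, 4.09 and 2.67 CPM at 28 d, 24.3, 37 and 33.9 CPM at 7 d, and 0.436, 0.736 and 0.423 CPM in sham, with no overlap between groups. Il7r rose 59.3-fold at 7 d (log2 fold change 5.89 ± 0.3 SE, adjusted p = 2.1e-07) and 5.92-fold at 28 d (2.56 ± 0.33, adjusted p = 0.000251). It was lower at 28 d than at 7 d by -3.32 ± 0.23 (adjusted p = 4.59e-06). Its partner Il2rg had 25, 21.2 and 15.2 CPM at 28 d, 53.3, 46.5 and 51.3 CPM at 7 d, and 18.3, 20.8 and 18.6 CPM in sham. Il2rg rose 2.62-fold at 7 d (adjusted p = 2.81e-05) and overlapped sham at 28 d (adjusted p = 0.662). The ratio of Il7r to Il2rg counts was 0.109, 0.194 and 0.175 at 28 d, 0.456, 0.796 and 0.661 at 7 d, and 0.0238, 0.0354 and 0.0227 in sham, 23.2-fold higher at 7 d than in sham (exact permutation p = 0.1; 0.125 after adjustment). The T cell marker sum, given above, was 11.2 to 21.6 CPM at 28 d, 20.2 to 34 CPM at 7 d and 3.66 to 5.07 CPM in sham. The macrophage marker sum was 944 to 1460 CPM at 28 d, 4420 to 5460 CPM at 7 d and 536 to 602 CPM in sham. The part of either list in the changes of Il7r was not tested.

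Il21r, the IL-21 receptor, had 3.78, 5.46 and 4.29 CPM at 28 d, 19.4, 19.4 and 16.5 CPM at 7 d, and 2.09, 1.75 and 2.2 CPM in sham. Il4ra, which binds IL-4 and, with Il13ra1, IL-13, had 41.7, 45.8 and 42.3 CPM at 28 d, 162, 118 and 125 CPM at 7 d, and 26.6, 36.5 and 29.8 CPM in sham. In both genes every 7 d heart was far above every other heart. Il21r rose 9.1-fold at 7 d and 2.23-fold at 28 d (adjusted p = 3.94e-07 and 0.000724). Il4ra rose 4.37-fold at 7 d (adjusted p = 1.07e-06) and 1.4-fold at 28 d (adjusted p = 0.0172), the 28 d call being lost without sham mouse 1 or 3 or MI 28 d mouse 2 (log2 fold change 0.37 to 0.44, adjusted p = 0.0532 to 0.0748). Il2rb, the chain shared by IL-2 and IL-15, had 4.78, 3.91 and 2.67 CPM at 28 d, 4.76, 4.65 and 9.29 CPM at 7 d, and 0.872, 1.01 and 0.761 CPM in sham, and rose 7.04-fold at 7 d and 4.26-fold at 28 d (adjusted p = 7.57e-05 and 0.00141). MI 7 d mouse 3, the highest for Il2rb, also had the highest sum of natural killer cell markers, 13.7 CPM against 9.77 and 8.76 CPM in the other MI 7 d hearts, 2.03 to 4.25 CPM at 28 d and 0.676 to 0.96 CPM in sham. Il2ra, the high-affinity chain for IL-2, had 3.38, 3.54 and 2.14 CPM at 28 d, 3.03, 3.27 and 2.94 CPM at 7 d, and 2.44, 1.75 and 1.1 CPM in sham. Its 7 d call (0.8 ± 0.3 SE, adjusted p = 0.0355) was lost without sham mouse 2 or 3 or any MI 7 d mouse (0.55 to 0.84, adjusted p = 0.0572 to 0.127).

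Il15ra, which presents IL-15 to neighbouring cells, was the receptor of this group that fell. It had 21.4, 19.8 and 21.3 CPM at 28 d, 10.1, 10.6 and 11.2 CPM at 7 d, and 22.8, 23.9 and 21.3 CPM in sham. The 7 d hearts stood below all others, and 28 d overlapped sham. Il15ra was 2.13-fold lower at 7 d than in sham (log2 fold change -1.09 ± 0.09 SE, adjusted p = 3.24e-06), and higher at 28 d than at 7 d (0.97 ± 0.09, adjusted p = 2.72e-05). Its ligand Il15 was below sham at both times, and the 28 d and 7 d levels of Il15 did not differ past the threshold (0.43 ± 0.26, adjusted p = 0.19). That difference turned on single MI 28 d mice. It passed without mouse 3 (0.68, adjusted p = 0.0154), and was -0.02 without mouse 1 (adjusted p = 0.93), the highest of the infarct hearts.

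**Figure D3:**
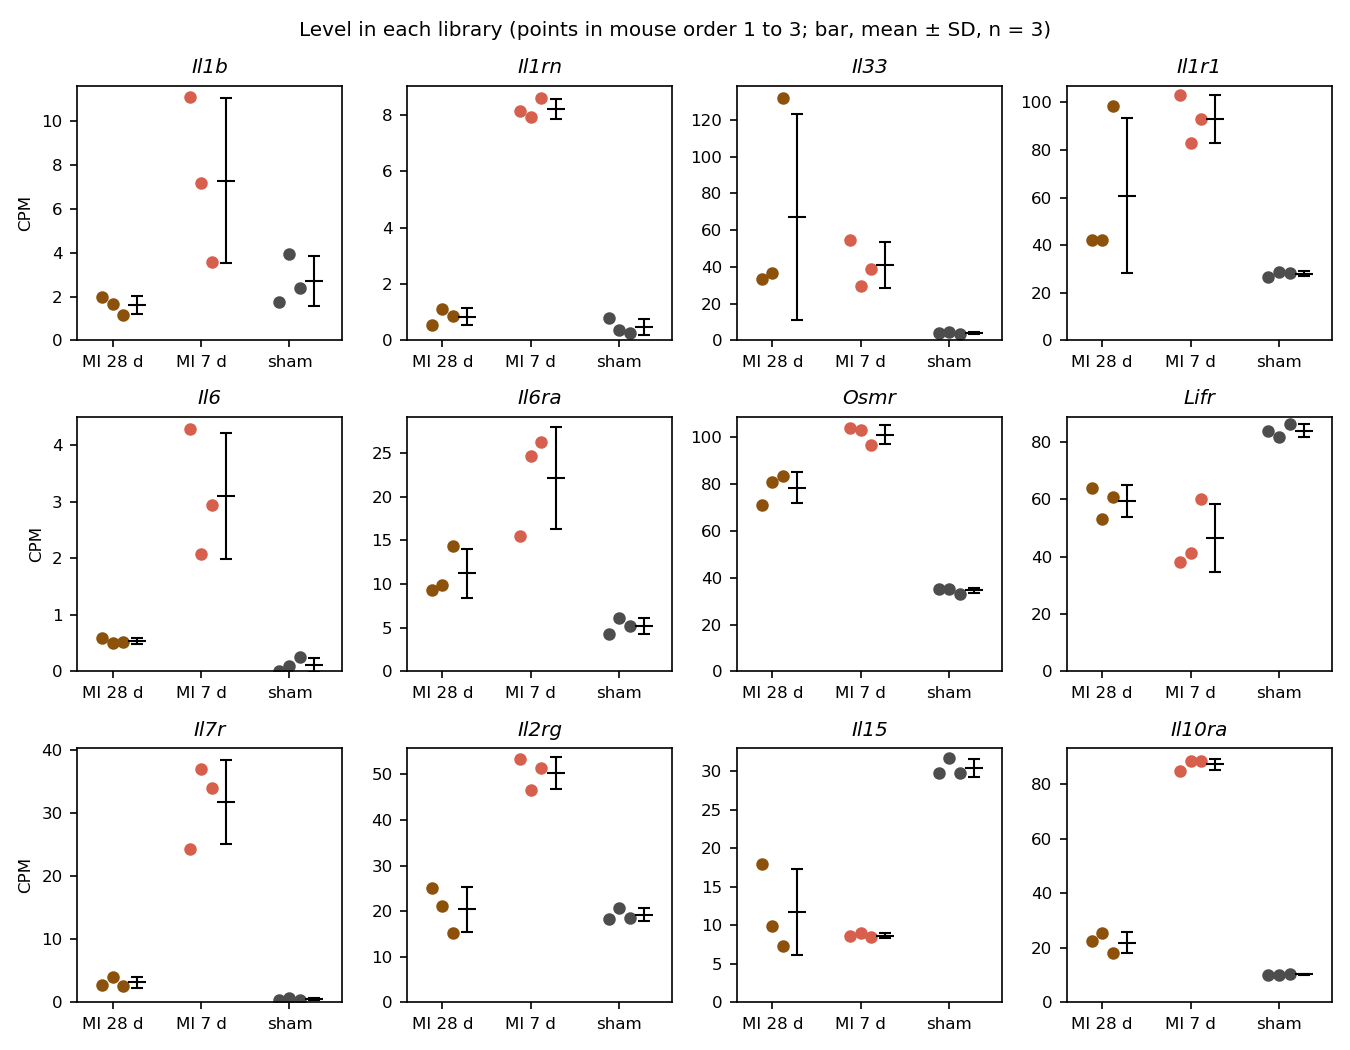
CPM of 12 members in each of the 9 hearts; each point is a mouse and each bar the mean ± SD of 3 mice, with MI 28 d left of MI 7 d and sham. Il7r, Il1rn and Il6 peak at 7 d, Il33 is high at both infarct times with its highest point in MI 28 d mouse 3, and Il15 and Lifr are lowest in infarcted hearts.

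Il3ra, the binding chain for IL-3, and Il13ra1, a chain of the IL-4 and IL-13 receptor, were the tested members of the IL-3, IL-5 and IL-13 group. Il3ra had 8.56, 8.19 and 9.27 CPM at 28 d, 31.5, 26.9 and 28.3 CPM at 7 d, and 5.41, 5.79 and 5.66 CPM in sham, and rose 5.14-fold at 7 d (adjusted p = 1.32e-07) and 1.54-fold at 28 d (adjusted p = 0.00117). Il13ra1 had 100, 112 and 82.4 CPM at 28 d, 108, 102 and 95.8 CPM at 7 d, and 89.6, 89.7 and 86.4 CPM in sham, and did not pass (adjusted p = 0.262 at 28 d and 0.113 at 7 d). Without MI 28 d mouse 3 it passed as higher at both times (log2 fold change 0.26 and 0.2, adjusted p = 0.0239 and 0.0306). Il13ra2, known as a decoy for IL-13, was under the filter but had 0, 9 and 10 counts at 28 d, 20, 11 and 20 counts at 7 d, and none in any sham library. Against a floor of 3 counts over the sham group, it was 9.4-fold higher at 7 d and 4.47-fold higher at 28 d. The floor covers the counting error of sham only, and the infarct counts are taken as observed. Il5ra, the IL-5 receptor chain of eosinophils, had 11, 1 and 8 counts at 28 d, 0, 3 and 1 counts at 7 d, and 1, 1 and 0 counts in sham. Its ratio of 28 d to sham was 7.05, with an exact 95% interval of 1.71 to 62.2 for counting error. Il5 had 5 or fewer counts in each group, Il13 had 1 count in all and Il3 had none.

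Il10ra, the binding chain for the inhibitory cytokine IL-10, had 22.4, 25.4 and 18 CPM at 28 d, 84.9, 88.5 and 88.3 CPM at 7 d, and 10.2, 10.2 and 10.4 CPM in sham. Il10rb, the second chain, which IL-10 shares with IL-22 and the lambda interferons, had 141, 113 and 108 CPM at 28 d, 109, 109 and 113 CPM at 7 d, and 209, 213 and 210 CPM in sham. The chains of this receptor thus lay on opposite sides of sham in every infarcted heart. Il10ra rose 8.48-fold at 7 d (adjusted p = 7.18e-08) and 2.14-fold at 28 d (adjusted p = 0.000117). Il10rb was 1.91-fold lower at 7 d (adjusted p = 1.77e-05) and 1.74-fold lower at 28 d (adjusted p = 0.000209); its exons overlap those of Gm21970 on the same strand. Il10 itself had 0, 4 and 6 counts at 28 d, 8, 6 and 10 counts at 7 d, and none in sham. Against the same floor, with the infarct counts again taken as observed, it was 4.43-fold higher at 7 d and 2.35-fold higher at 28 d.

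Other chains of the IL-10 family were rare. Il22ra1, the IL-22 receptor of epithelia, had 1.73, 1.86 and 9.15 CPM at 28 d, 1.54, 1.68 and 1.54 CPM at 7 d, and 0.96, 1.29 and 1.1 CPM in sham. Its 28 d call (log2 fold change 1.93 ± 0.63 SE, adjusted p = 0.0258) rested on MI 28 d mouse 3: without it the value was 0.68 (adjusted p = 0.0621), and without any 1 sham mouse the adjusted p was 0.0609 to 0.082. Il20rb had 1.53, 2.92 and 2.38 CPM at 28 d, 3.8, 1.93 and 3.32 CPM at 7 d, and 2.09, 2.21 and 2.11 CPM in sham, and passed in no comparison over all libraries (at 7 d log2 fold change 0.5, adjusted p = 0.174, and 0.74, adjusted p = 0.0434, without MI 7 d mouse 2). Il20ra had 0 counts at 28 d and in sham and 10, 4 and 2 counts at 7 d. The observed 7 d counts were 2.95-fold above the sham floor. The ligands Il19, Il20, Il22 and Il24 had 6 counts between them over all libraries, all from Il19.

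**Figure D4:**
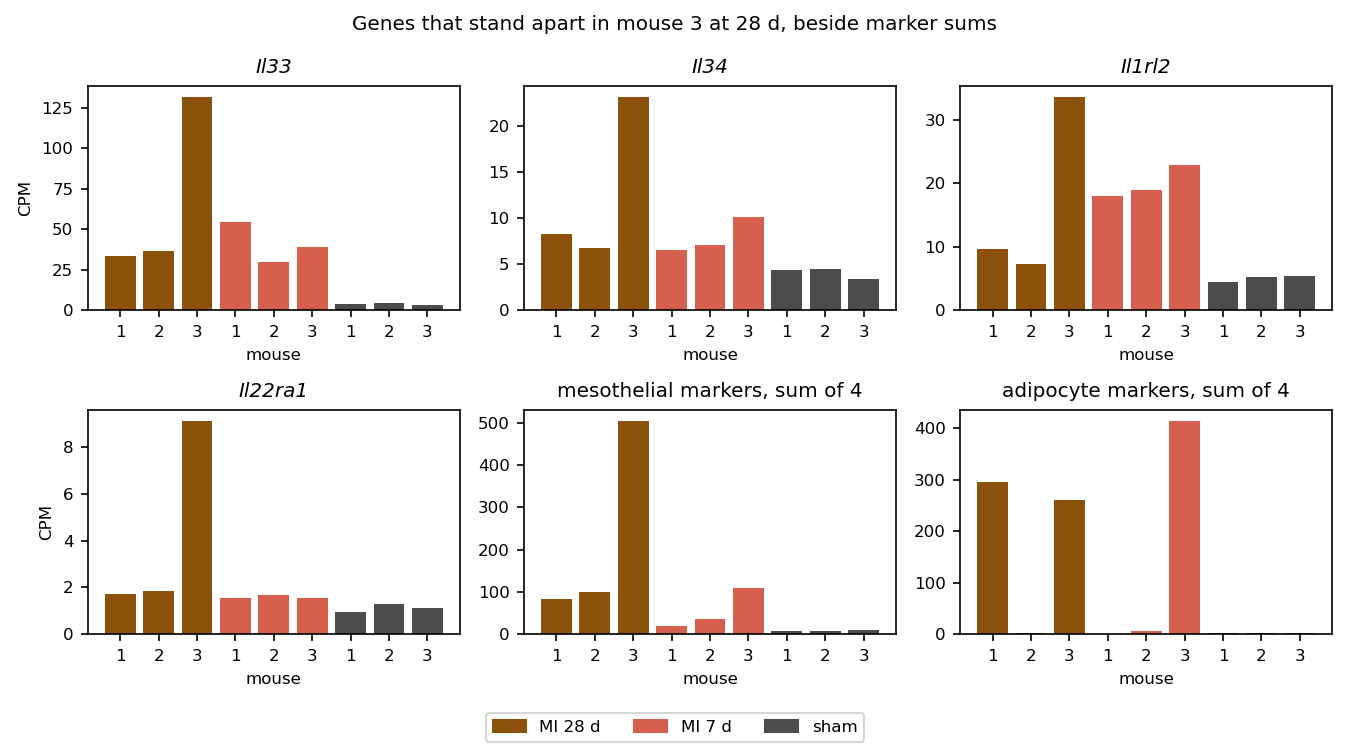
Levels in each of the 9 hearts (bars from 0) of Il33, Il34, Il1rl2 and Il22ra1 and of the summed mesothelial and adipocyte markers, in CPM. MI 28 d mouse 3 has the highest bar for all 4 genes and for the mesothelial sum of 505 CPM, while the adipocyte sum is high in 3 hearts of both infarct groups. The mast cell and eosinophil sum, also highest in that mouse, is not drawn.

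Il12b, the p40 chain of IL-12 and IL-23, had 0.73, 0.993 and 0.174 CPM at 28 d, 1.44, 1.44 and 0.433 CPM at 7 d, and 0.0872, 0.184 and 0 CPM in sham. Its group totals were 30 counts at 28 d, 68 at 7 d and 3 in sham, a ratio of 12.5 at 7 d (exact 95% interval 4.11 to 62.3) and 7.05 at 28 d (2.19 to 36.1). The test passed at 7 d (log2 fold change 3.53, adjusted p = 0.0069) and at 28 d (adjusted p = 0.0463). The 7 d value was 4.45 without sham mouse 2 and 2.96 without sham mouse 3. The 28 d call was lost without any sham mouse, MI 7 d mouse 1 or 2, or MI 28 d mouse 1 or 2, with values of 2.14 to 3.64 and adjusted p of 0.0571 to 0.135. Il12rb1, its receptor chain, had totals of 33 counts at 28 d, 59 at 7 d and 2 in sham, a ratio of 16.3 at 7 d (4.32 to 138) and 11.6 at 28 d (2.98 to 100). It passed at both times (adjusted p = 0.000569 and 0.00355), and both sham counts came from sham mouse 3, without which no sham count was left. Il12rb2, the chain specific to IL-12, had 3.19, 1.55 and 2.38 CPM at 28 d, 2.16, 2.43 and 1.64 CPM at 7 d, and 2.62, 2.39 and 3.13 CPM in sham, and passed in no comparison. Il23r had 3, 5 and 7 counts at 28 d, 3 counts in each 7 d heart and none in sham. The observed 28 d counts were 3.53-fold above the sham floor. The p28 chain Il27 had 2, 6 and 5 counts at 28 d, 20, 5 and 8 counts at 7 d, and 0, 0 and 1 count in sham, a ratio of 18.3 at 7 d (3.06 to 743) and 9.17 at 28 d (1.38 to 390). Il12a and Il23a stayed at 10 or fewer counts in each group.

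Among IL-17 family ligands, Il17d had enough counts to be tested. Il17a had no count, and Il17b, Il17c, Il17f and Il25 had 5 or fewer counts in each group. Il17d had 4.51, 3.91 and 3.01 CPM at 28 d, 4.67, 4.55 and 4.28 CPM at 7 d, and 4.8, 3.22 and 2.87 CPM in sham, and did not pass (adjusted p = 0.824 at 28 d and 0.246 at 7 d). Of 5 receptor genes, 4 were tested; 2 rose at 7 d and 4 at 28 d. Il17ra, the chain shared by several IL-17 receptors, had 18.6, 24.5 and 23.9 CPM at 28 d, 47, 41 and 48 CPM at 7 d, and 6.11, 8 and 8.28 CPM in sham. It rose 6.07-fold at 7 d and 2.99-fold at 28 d (adjusted p = 4.55e-07 and 5.62e-05), with all 3 groups apart. Il17rc, its partner for IL-17A, had 13.1, 16.9 and 16.8 CPM at 28 d, 20, 16.4 and 16.9 CPM at 7 d, and 9.07, 8.83 and 9.13 CPM in sham, and rose 1.97-fold at 7 d and 1.73-fold at 28 d (adjusted p = 8.42e-05 and 0.000928).

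Il17re, the IL-17C receptor chain of epithelia, had 1.53, 2.11 and 3.65 CPM at 28 d, 0.481, 0.792 and 1.35 CPM at 7 d, and 0.523, 0.644 and 0.423 CPM in sham. It rose 4.57-fold at 28 d (adjusted p = 0.00422), did not pass at 7 d (adjusted p = 0.229), and was higher at 28 d than at 7 d (log2 fold change 1.47 ± 0.42 SE, adjusted p = 0.0149). That last call was lost without MI 7 d mouse 1 (1.18, adjusted p = 0.051) or MI 7 d mouse 2 (1.41, adjusted p = 0.0503). Il17rd had 21.8, 22.3 and 25.3 CPM at 28 d, 16.8, 20.1 and 20.8 CPM at 7 d, and 18.5, 18 and 18.6 CPM in sham. Its small rise at 28 d (0.33 ± 0.11, adjusted p = 0.0234) was lost without any 1 sham mouse or MI 28 d mouse 3 (0.27 to 0.33, adjusted p = 0.0714 to 0.0837). Il17rb, which binds IL-25, had 18 counts at 28 d, 22 at 7 d and 9 in sham.

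Some members carry an interleukin name without belonging to these families. Il34, the second ligand of the macrophage receptor CSF1R, had 8.3, 6.76 and 23.2 CPM at 28 d, 6.49, 7.08 and 10.1 CPM at 7 d, and 4.36, 4.51 and 3.38 CPM in sham. All infarct hearts were above all sham hearts, and MI 28 d mouse 3 was far above the rest. Il34 rose at 28 d (log2 fold change 1.65 ± 0.44 SE, adjusted p = 0.011), by 0.88 without that mouse (adjusted p = 0.0103), and did not pass at 7 d (0.95 ± 0.44, adjusted p = 0.0763; 0.0442 without MI 28 d mouse 2 and 0.00201 without MI 28 d mouse 3). Il16, a chemoattractant for CD4+ cells, had 19.5, 21.7 and 35.9 CPM at 28 d, 36.2, 34.2 and 40.8 CPM at 7 d, and 20.8, 21.4 and 20.8 CPM in sham. MI 28 d mouse 3 lay within the 7 d range. Il16 rose 1.77-fold at 7 d (adjusted p = 0.00416). Its lower level at 28 d than at 7 d (-0.53 ± 0.2, adjusted p = 0.0444) was lost when any mouse except MI 28 d mouse 3 was left out (-0.58 to -0.37, adjusted p = 0.062 to 0.139). Its exons overlap Stard5 on the opposite strand. Il4i1, which encodes an amino acid oxidase, had 7 counts at 28 d, 13 at 7 d and 6 in sham.

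**Figure D5:**
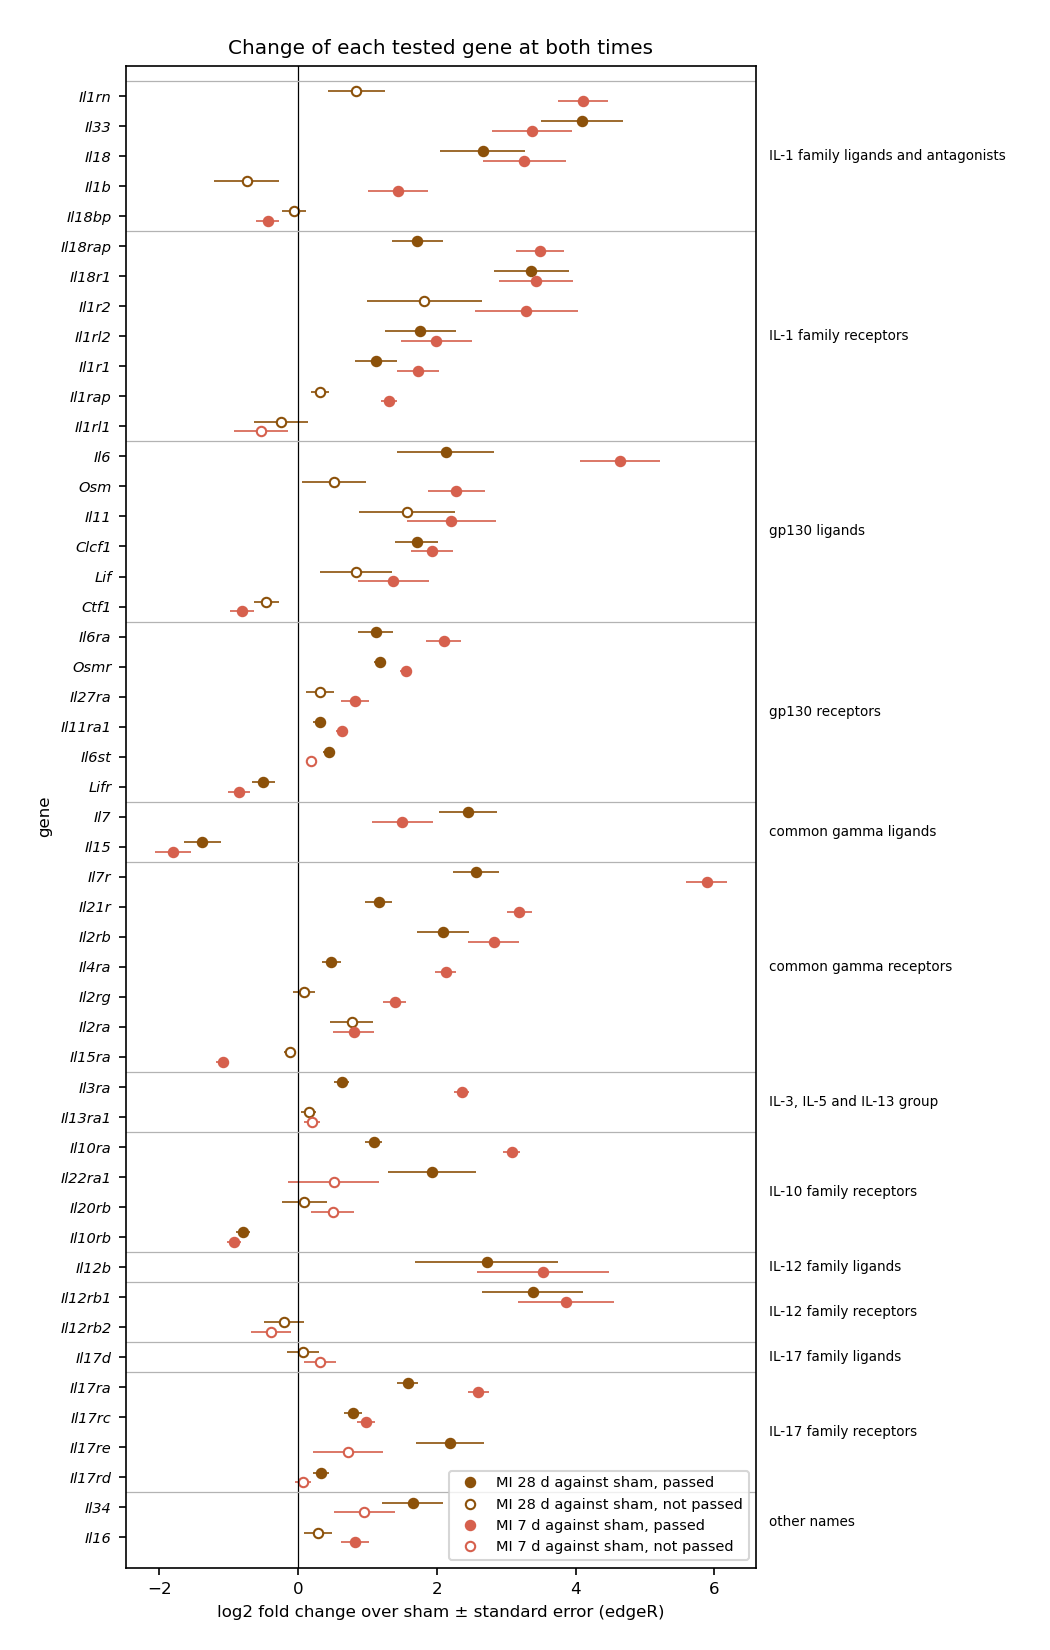
Log2 fold change relative to sham of the tested members (horizontal axis), with bars of 1 SE, at 28 d and at 7 d. Il7r lies farthest right at 7 d (5.89) and Il33 at 28 d (4.09), and Il15 lies farthest left at both times (-1.81 at 7 d and -1.38 at 28 d).

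Read over the 3 groups, 11 members rose at both times and were lower at 28 d than at 7 d: Il10ra, Il11ra1, Il17ra, Il18rap, Il21r, Il3ra, Il4ra, Il6, Il6ra, Il7r and Osmr. Another 6 passed at 7 d only and were lower at 28 d than at 7 d: Il16, Il1b, Il1rap, Il1rn, Il2rg and Osm. A further 10 rose at both times with no difference between the times past the threshold, namely Clcf1, Il12b, Il12rb1, Il17rc, Il18, Il18r1, Il1r1, Il1rl2, Il2rb and Il33. For 3 of these, Il18, Il1r1 and Il1rl2, this rested on MI 28 d mouse 3. Without that library their log2 fold changes of 28 d over 7 d were -1.58 for Il18, -1.14 for Il1r1 and -1.23 for Il1rl2 and all passed (adjusted p = 0.000418, 7.66e-06 and 0.000128), where with it they were -0.6, -0.61 and -0.24. Il33 was at 0.72 with that library and at -0.22 without it, and passed in neither. Il11, Il1r2, Il27ra, Il2ra and Lif, 5 in all, passed only at 7 d relative to sham. Il7 rose at both times and was higher at 28 d. The members that passed at 28 d only were Il6st, Il34, Il17rd, Il17re and Il22ra1. Il10rb, Il15 and Lifr fell at both times, and Ctf1, Il15ra and Il18bp at 7 d only. A member that passed at 1 time and not at the other is not shown to differ between the times unless it also passed in the comparison of 28 d with 7 d.

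The lists of genes downstream of the receptors are read against all tested genes, of which 39% rose and 35.4% fell at 7 d and 29.5% rose and 25.6% fell at 28 d. Of 11 JAK and STAT genes, 5 rose and 3 fell at 7 d, close to those shares, and 6 rose and 3 fell at 28 d, with a median log2 fold change of 0.13 at 7 d and 0.28 at 28 d beside 0.06 and 0.05 for all tested genes. Stat4, which acts behind the IL-12 receptor, had 2.46, 2.05 and 3.36 CPM at 28 d, 4.47, 3.61 and 3.37 CPM at 7 d, and 0.174, 0.46 and 0.254 CPM in sham (log2 fold change 3.67 at 7 d and 3.13 at 28 d; adjusted p = 9.78e-06 and 0.000169). Stat5b, which acts behind the common gamma receptors, had 70.3, 72.5 and 65.6 CPM at 28 d, 48.4, 54.7 and 54.9 CPM at 7 d, and 113, 107 and 112 CPM in sham, and fell at both times (-1.07 at 7 d and -0.67 at 28 d; adjusted p = 1.2e-06 and 0.000122). Stat5a also fell at both times. Stat3, the main factor behind gp130, rose at 28 d (0.32, adjusted p = 0.00606) and did not pass at 7 d (0.08, adjusted p = 0.358). Of 8 SOCS feedback genes, 3 rose and 3 fell at 7 d, and 2 rose and 1 fell at 28 d, which is also near the shares of all tested genes (median 0.07 at 7 d and 0.09 at 28 d). Socs3, the feedback inhibitor of gp130, had 13.9, 18.1 and 19.9 CPM at 28 d, 54.6, 31.3 and 30.7 CPM at 7 d, and 9.16, 8.37 and 7.18 CPM in sham (2.24 at 7 d and 1.07 at 28 d; adjusted p = 2.14e-05 and 0.00504). Cish, a feedback target of STAT5, had 101, 79.3 and 58.7 CPM at 28 d, 36.4, 20.7 and 17.9 CPM at 7 d, and 155, 169 and 163 CPM in sham, and fell at both times (-2.7 at 7 d and -1.02 at 28 d; adjusted p = 1.17e-05 and 0.00782).

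Of 12 inflammasome genes, whose products mature IL-1 beta and IL-18, 11 rose and 1 fell at 7 d, and 7 rose at 28 d. At 28 d relative to 7 d, 11 were lower and 1 higher, against 26.1% and 29.1% of all tested genes. The median log2 fold change of the inflammasome genes was 2.25 at 7 d and 0.9 at 28 d, beside 0.06 and 0.05 for all tested genes. At 28 d relative to 7 d it was -1.39, beside 0.03. Nlrp3 had 1.46, 2.05 and 1.45 CPM at 28 d, 4.62, 5.35 and 5.53 CPM at 7 d, and 1.13, 1.29 and 1.18 CPM in sham (log2 fold change 2.1 at 7 d, adjusted p = 1.41e-05; 0.46 at 28 d, adjusted p = 0.138). Casp1, the protease of the complex, had 8.69, 7.51 and 15.6 CPM at 28 d, 19.7, 21.1 and 23.6 CPM at 7 d, and 3.75, 4.69 and 3.13 CPM in sham, and rose at both times (2.48 at 7 d and 1.47 at 28 d; adjusted p = 2.48e-05 and 0.00191). Nek7, a kinase needed for NLRP3 activation, was the gene that fell at 7 d (-0.36, adjusted p = 0.00192). Of 22 IL-1 signalling genes, 10 rose and 7 fell at 7 d, and 8 rose and 5 fell at 28 d, near the shares of all tested genes (median 0.17 at 7 d and 0.02 at 28 d). Myd88, the adaptor of the family, rose at 7 d (1.08, adjusted p = 5.28e-06), and Nfkbia, the inhibitor of NF-kB, at 28 d (1.18, adjusted p = 9.8e-05). Of 6 IL-17 signalling genes, 4 rose at 7 d, and 2 rose and 1 fell at 28 d (median 0.49 and 0.29). Traf3, an inhibitor of IL-17 signalling, had its rise at 28 d (1, adjusted p = 3.62e-05). The sheddases Adam10 and Adam17, which cut IL-6 and IL-1 receptors from the cell surface, both rose at 7 d (0.9 and 0.59; adjusted p = 4.71e-06 and 0.000125). At 28 d Adam10 remained above sham (0.26, adjusted p = 0.0196) and Adam17 was below it (-0.35, adjusted p = 0.00703).

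The remaining members had few or no counts. Cntf, Il1rapl1, Il22ra2, Il31ra, Il4i1b, Il9r and Il1bos stayed at 8 or fewer counts in each group. The 13 members with no count in any library were Il20, Il22, Il24, Il31, Il3, Il9, Il17a, Il11ra2, Il1rapl2, Il1f5, Il1f6, Il1f8 and Il1f10. A count of 0 over a group allows up to 3 counts there, so these genes were not detectable at this depth rather than shown to be absent.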

How the data were processed

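RNA-seq libraries from 9 mouse hearts were analysed from 1 table of raw gene counts as deposited. Per the labels' protocols, total RNA was extracted with TRIzol and libraries were made with the KAPA RNA HyperPrep kit. The submitters' processing notes name Trim Galore, STAR, featureCounts and mm10; neither an annotation nor a strand setting is named there. All count columns matched a sample title, and groups follow the treatment and time labels. Counts were tested with edgeR 4.0.16 in R 4.3.3 (quasi-likelihood, two-sided, TMM scaling, 1 mean per group over all 9 libraries). The filter by group used a minimum count of 10 and a minimum total of 15, and p-values were Benjamini-Hochberg adjusted over 14347 genes with a threshold of 0.05. CPM use TMM-scaled library sizes, fold changes carry standard errors (SE), and per kb levels use GENCODE vM21 exon lengths, available for 90 members. All 91 members matched RefSeq symbols. Exact intervals are at 95% and cover counting error only. A count of 0 was given a floor of 3 counts over the group, which covers the counting error of that group alone. The alternatives were DESeq2 1.42.0, limma 3.58.1, other scalings and filters, fits of the compared libraries only, a replicate block and leaving out each library. On simulated data drawn for the comparison of 7 d with sham, 77.3% of 2-fold and 96% of 4-fold changes were called, with 7 false calls among 13974 unchanged genes. The comparison of 28 d with sham gave 66.7% and 94.9%, with 10 false calls. That of 28 d with 7 d gave 83% and 97%, with 18 false calls. Every group was simulated with the same spread, so these rates do not cover the unequal spread between the groups. Values in every sample are given for a list of well-known members and for the strongest members of each family. The members and lists were chosen with earlier results of these data known. The replicates of a group are taken as separate animals, and none were identical within sampling noise. Sham replicates came closest to it. Their chi-square per degree of freedom, near 1 for sampling noise alone, was 1.67 to 1.8 between pairs. Between pairs of infarct replicates it was 18.8 to 71.2.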

Additional observations from a re-analysis of the deposited data

Results flagged for a closer look

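The change since MI differed between the infarct times for 21 members, by the test of 28 d against 7 d (edgeR quasi-likelihood, adjusted over all tested genes). Where 29.1% of all tested genes were higher and 26.1% lower at 28 d than at 7 d, 4 and 17 of the 49 tested members were. Among ligands and antagonists the log2 fold change of 28 d over 7 d was -3.27 for Il1rn, -2.51 for Il6, -2.18 for Il1b, -1.76 for Osm and -0.53 for Il16, and 0.95 for Il7. Among common gamma and IL-3 receptor chains it was -3.32 for Il7r, -2.03 for Il21r, -1.73 for Il3ra, -1.64 for Il4ra and -1.3 for Il2rg, and 0.97 for Il15ra. Among gp130 receptors it was -0.98 for Il6ra, -0.37 for Osmr and -0.32 for Il11ra1, and 0.25 for Il6st. Among the remaining receptor chains it was -1.99 for Il10ra, -1.77 for Il18rap, -1.02 for Il17ra and -0.99 for Il1rap, and 1.47 for Il17re. The macrophage marker sum was lower at 28 d (944 to 1460 CPM) than at 7 d (4420 to 5460 CPM), and its part in these differences was not tested.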

How the results depend on the processing

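Of 90 calls on single members, 73 passed under every alternative fit that tested the gene. Some calls at low counts were not tested in every fit. The stricter filter removed Il11, Il12rb1 and Il1r2. Fits of the compared libraries only removed, among others, Il12b at 7 d and Il12rb1 at 28 d. Over 147 member results and 2628 alternatives, 87 ended a call and 73 made a new one. Another 35 values changed sign without passing in either fit and are counted as unchanged. Their values under the alternatives were at most 0.57 in size, and among them Il33 at 28 d over 7 d was 0.72 as reported and -0.22 without MI 28 d replicate 3. The count of members higher at 28 d than at 7 d, 4 in the fit reported, was 2 with library size alone, 2 with no filter and 2 with limma voom, and 1 to 5 when single libraries were left out. Members lower at 28 d than in sham, 3 as reported, numbered 5 without the 3 libraries with over 100 CPM of Adipoq (Ctf1 and Il1rl1 were added). That alternative and voom were chosen after seeing the data. With library size alone, 6479 genes of the whole table were higher and 2278 lower at 28 d than in sham, against 4233 and 3673 as reported. The log2 ratio of Il1rap to Il1r1 at 28 d over 7 d lay between -0.5 and 0.2 when single libraries were left out, and turned to 0.2 without MI 28 d replicate 3. Leaving out single libraries moved members higher at 7 d than in sham between 30 and 37, and at 28 d between 22 and 27. Correlations of the deviations of same-numbered mice were -0.09, 0.26 and 0.3 between infarct groups and -0.02 to 0.02 with sham. Mice of different numbers were not compared, so these values cannot decide whether the numbers pair samples. The fit reported does not pair them. With the replicate block, 33 members rose and 6 fell at 7 d, 28 rose and 3 fell at 28 d, and 4 were higher and 18 lower at 28 d than at 7 d. The coefficient of biological variation between libraries, as edgeR estimates it, was far smaller in sham (2.73%) than at 7 d (17%) or 28 d (24.2%). The shared estimate of spread averages over the groups. That the replicates are separate animals is taken as given and cannot be read from this spread. Ligands with few counts are limited by depth.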
